A study of Mus musculus with 4 samples.

Results

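Collagen VIII is encoded by 2 genes, *Col8a1* for the alpha 1 chain and *Col8a2* for the alpha 2 chain, and these were followed here in cells of the fetal vessel wall. They were picked by symbol as the only collagen VIII genes among the 44 collagen genes and the 32285 genes of the feature tables, and they were picked because *Col8a1* had already been seen to vary between cell classes and genotypes in these libraries. Their levels are therefore given as a description, and no p-value is given for either gene.

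Collagen VIII is a short-chain, non-fibrillar collagen of the extracellular matrix. Its alpha chains can join into trimers of a single chain type or of both, and the trimers assemble into open hexagonal lattices, as in the basement membrane under the corneal endothelium. In blood vessels it is made by smooth muscle and endothelial cells, it is known for being raised in growing or injured vessel walls, and cells bind it through the collagen receptor *Ddr1* and through integrins that contain *Itgb1*.

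The libraries were made from leg muscles of E18.5 mouse fetuses with the droplet-based 10x Genomics 3′ v3 assay, in which a unique molecular identifier (UMI) marks each captured transcript. There were 2 wild-type (WT) libraries and 2 libraries from fetuses in which *SYISL* was knocked out (KO). *SYISL* is a long non-coding RNA transcribed from within the gene *Synpo2*. WT and KO fetuses were littermates, and nothing else distinguished the groups in the labels. No promoter or cell type that would restrict the knockout was named, so it is not particular to the vessel wall. Muscles were collected fetus by fetus, but whether each library held the cells of 1 fetus was not stated outright, so any spread between libraries may be partly technical.

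Each library held 9528 to 11670 cell barcodes and 109653824 to 126257094 UMIs, and 36969 of 41741 barcodes passed the filters on genes, UMIs and mitochondrial share. Any pair of libraries shared 21 to 41 barcodes. KO replicate 2 stood apart from the rest in sex-linked genes, with 131038 *Xist* UMIs against 0 to 5 in the other libraries and 0 *Eif2s3y* UMIs against 6873 to 7642. Values are therefore given library by library, and the main difference of *Col8a1* also without KO replicate 2. The deleted RNA has no entry of its own that was used here. Its host gene *Synpo2*, which encodes an actin-binding protein of muscle, stood at 230 and 258 CPM (counts per 1000000 UMIs) in WT and 254 and 254 CPM in KO libraries in the smooth muscle cells described next. CPM was always taken over the UMIs of all genes in the same group of cells.

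The class taken as the vessel wall was a cluster of 1748 cells in which 11 of 11 smooth muscle and pericyte markers stood out, and it was led by *Myh11*, *Rgs5*, *Higd1b* and *Actg2*. Within it, a cell with at least 10 *Acta2* and at least 2 *Myh11* UMIs per 10000 was called *Myh11* and *Acta2* high. *Acta2* and *Myh11* encode the actin and myosin heavy chain of smooth muscle, so these are the more contractile cells of the class. The cut kept 665 cells, with 194 and 124 in WT and 202 and 145 in KO libraries. The remaining 1083 cells had a median of 0 *Myh11* UMIs per 10000 in each library. Of the high cells, 83.8% fell in a finer cluster led by *Actg2*, *Myh11* and *Tagln*, and 16.2% in one led by *Higd1b*, *Phox2a* and *Rgs5*, of which *Higd1b* and *Rgs5* are pericyte genes. Of the class, 219 cells (12.5%) lay near the cut, and 14 cells with the same *Acta2* and *Myh11* levels lay outside the class.

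In mouse genome build GRCm38 (GENCODE M21), *Col8a1* (ENSMUSG00000068196) lies on the minus strand of chromosome 16 at chr16:57624258-57754737. Its main transcript has 4 exons and 5108 bases, and codes for a chain of 744 residues. *Col8a2* (ENSMUSG00000056174) lies on the plus strand at chr4:126286793-126314330, also with 4 exons, a transcript of 4332 bases and a chain of 699 residues. In both genes exon 4 holds most of the coding sequence and all of the 3′ UTR, which is 2653 bases in *Col8a1* and 2032 bases in *Col8a2*, and this is the end that a 3′ library reads. No other annotated gene overlaps either of them. The longest run of identical bases between the transcripts was 15, and no run of 31 bases was shared, so a read of one gene can be told from a read of the other.

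The promoters of the genes are shown because the genes differed so much in the cells that held their UMIs. These are the 250 bases before each RefSeq start (GRCm38.p6), 5′ to 3′ on the strand of the gene, at chr16:57754738-57754987 (minus strand) for *Col8a1* and chr4:126286544-126286793 (plus strand) for *Col8a2*. Capitals mark matches, on either strand, to the GC box GGGCGG and to the letters CAGAC, the core that SMAD proteins can bind.
Col8a1: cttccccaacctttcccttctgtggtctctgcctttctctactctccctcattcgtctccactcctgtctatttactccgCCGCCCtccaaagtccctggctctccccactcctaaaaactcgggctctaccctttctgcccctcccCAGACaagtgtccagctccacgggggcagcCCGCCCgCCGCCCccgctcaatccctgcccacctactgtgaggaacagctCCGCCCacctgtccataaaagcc
Col8a2: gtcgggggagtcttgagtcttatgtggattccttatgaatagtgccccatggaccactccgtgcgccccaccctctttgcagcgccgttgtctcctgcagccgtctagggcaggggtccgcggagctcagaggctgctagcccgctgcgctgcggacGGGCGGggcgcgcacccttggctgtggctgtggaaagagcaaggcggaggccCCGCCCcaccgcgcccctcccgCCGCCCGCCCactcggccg
Each window held 4 GC boxes, a motif found in 32.7% of 32851 windows of the same length. Those of *Col8a1* began 170, 73, 66 and 23 bases before the start, and those of *Col8a2* began 93, 41, 19 and 15 bases before it, where the last pair overlap. CAGAC was found once in *Col8a1*, 103 bases before the start, and not in *Col8a2*, and 42.2% of all windows hold it. Neither window held TATAAA (12.4% of windows), CATTCC, a motif of muscle promoters (12.6%), or a CArG box, the serum response factor motif of contractile genes (1.47%). G and C made up 60.8% of the *Col8a1* window and 70% of the *Col8a2* window against a median of 52.4%, with 10 and 24 CpG pairs against a median of 6. These matches are letters in a short window and were not tied to any measured binding.

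Among 11 groups of cells with enough cells in every library, *Col8a1* was highest in the *Myh11* and *Acta2* high cells, at a mean of 312 CPM over the 4 libraries. The chondrocyte-like class followed at 108 CPM, the glial-like class at 65.8 CPM, an unnamed cluster led by *Ccl11* at 47.0 CPM and the FAP-like class (fibro-adipogenic progenitors, the fibroblasts of muscle) at 19.4 CPM. Neighbours among these 5 groups did not overlap in any library. The chondrocyte-like level was uneven, since 1 finer cluster led by *Spp1*, *Runx2* and *Tnn* stood at 288 to 367 CPM. Its mean of 338 CPM lies within the range of the high cells but above their mean of 312 CPM. Its lowest library was also above the high cells of both KO libraries, at 203 and 188 CPM. The finer clusters led by *Msmp* and by *Kera* stood at means of 47.4 and 43.5 CPM. In the *Kera* cluster 6 of 6 tenocyte markers stood out, so the chondrocyte-like name does not cover every cell of that class. Below the 5 groups the mast-like, endothelial-like, tenocyte-like, other smooth muscle or pericyte-like, macrophage-like and myogenic-like groups had means of 10.2 down to 1.05 CPM. Neighbours in that order overlapped, as did the FAP-like and mast-like groups.

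**Figure D1:**
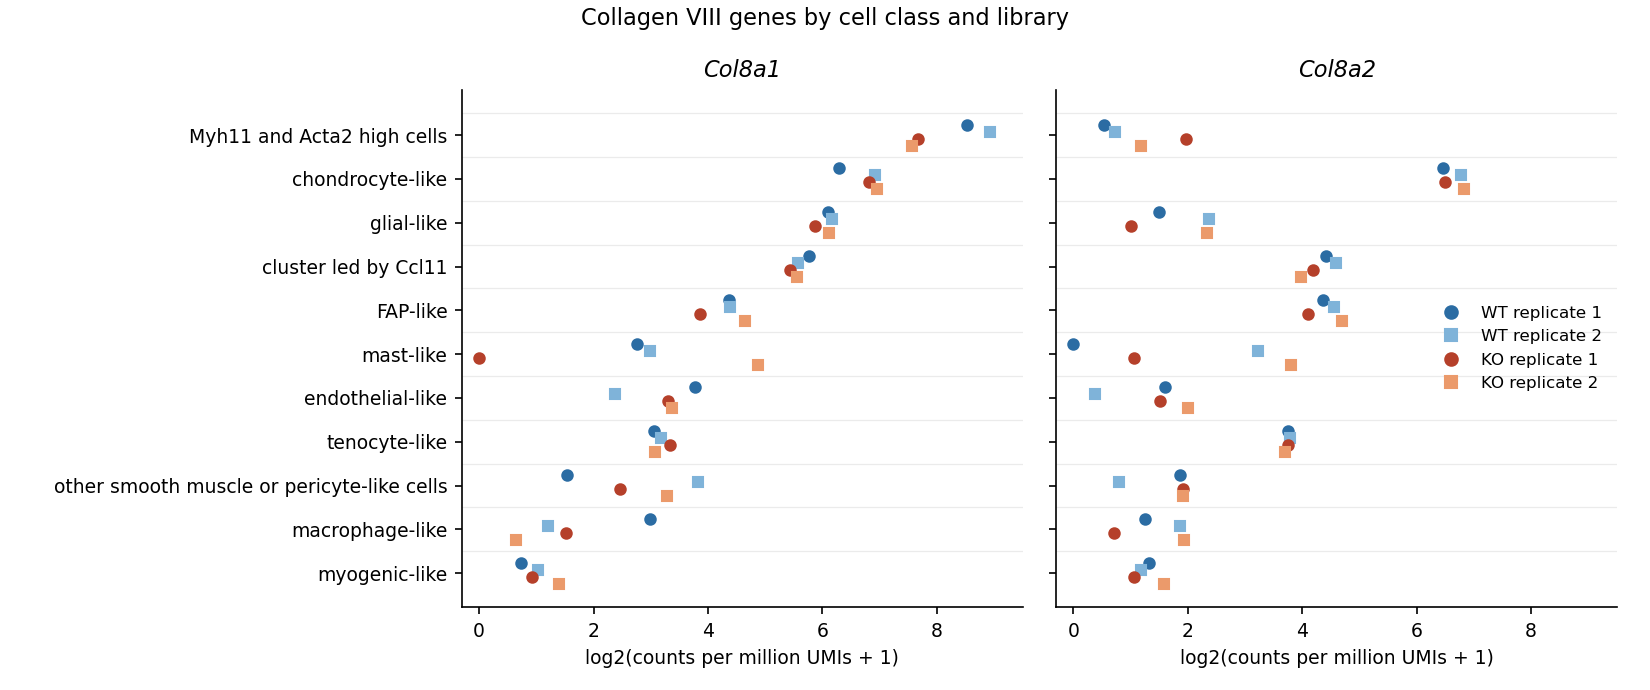
Levels of Col8a1 (left) and Col8a2 (right) in 11 groups of cells, as log2(CPM + 1) on the x axis, with 1 point for each library. Col8a1 is highest in the Myh11 and Acta2 high cells, where both KO points lie below both WT points, and Col8a2 is highest in the chondrocyte-like cells and close to 0 in the Myh11 and Acta2 high cells.

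Within the vessel wall class, 2279 of the 2358 *Col8a1* UMIs lay in the *Myh11* and *Acta2* high cells. The other smooth muscle or pericyte-like cells held 5 and 36 *Col8a1* UMIs in WT and 13 and 25 in KO libraries, which is 1.88 to 13.2 CPM. The share of these cells with a *Col8a1* UMI was 1.35% to 5.26%. In myogenic-like cells, which stand here for cells that should lack the gene, it was 0.654% to 1.33% at median depths of 9172 to 11537 UMIs, which gives the level that RNA free in the droplets can reach. The high cells, at median depths of 9254 to 11650 UMIs, were far above both, at 21.3% to 36.3%.

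*Col8a1* was lower in the *Myh11* and *Acta2* high cells of the KO libraries. It reached 826 UMIs (368 CPM) in WT replicate 1 and 739 UMIs (489 CPM) in WT replicate 2. It reached 417 UMIs (203 CPM) in KO replicate 1 and 297 UMIs (188 CPM) in KO replicate 2. Neither KO library reached the level of a WT library, and the KO libraries were close to each other. The log2 difference of KO from WT was -1.12 ± 0.12 (SE, edgeR fit across all genes), or 2.17-fold lower, and it was -1.08 without KO replicate 2, -1.17 without KO replicate 1, -1.31 without WT replicate 1 and -0.92 without WT replicate 2. Over all genes tested in these cells, 16.8% had both KO libraries below both WT libraries, and since *Col8a1* was chosen for this pattern nothing is read from that comparison.

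The class as a whole gave a like difference. This is no second result, since most *Col8a1* UMIs of the class were those of the high cells. Over all genes tested in the class, 19% had both KO libraries below both WT libraries. *Col8a1* stood at 170 and 182 CPM in WT and at 87.1 and 72.2 CPM in KO libraries, a log2 difference of -1.13 ± 0.10. In the other cells of the class it was -0.18 ± 0.55, on few UMIs and with overlapping libraries, so a difference was not detectable at this depth (there 19.7% of all genes had both KO libraries below both WT libraries, and 0.0176% were called lower). A change in the number of high cells would not by itself alter a CPM taken within them, but fewer *Col8a1* rich cells among the high cells and less RNA per cell cannot be told apart from a sum. High cells made up 42.7% and 33.4% of the class in WT and 40.5% and 34.2% in KO libraries, which did not differ beyond the spread (exact two-sided permutation p = 1, where the smallest p that 2 against 2 libraries can give is 0.333). As a share of all kept cells they were 1.90% ± 0.54 (SD, n = 2) in WT and 1.72% ± 0.48 (SD, n = 2) in KO libraries (exact permutation p = 0.667).

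*Col8a1* was unevenly spread over the high cells. In every library the median high cell had 0 *Col8a1* UMIs, while single cells held up to 118 and 115 UMIs in WT and up to 57 and 20 in KO libraries. Such cells weigh on the sums. Cells with 118 and 97 UMIs were part of the 826 UMIs of WT replicate 1. A cell with 115 was part of the 739 of WT replicate 2, and cells with 57 and 47 of the 417 of KO replicate 1. The difference was not refitted without these cells. The share of high cells with at least 1 *Col8a1* UMI was 28.9% (95% exact binomial interval 22.6 to 35.8) and 36.3% (27.8 to 45.4) in WT replicates 1 and 2. It was 21.3% (15.9 to 27.6) and 35.9% (28.1 to 44.2) in KO replicates 1 and 2, so the groups overlapped in this share. These intervals cover counting error only. With each cell thinned to 2000 UMIs, for which 1 WT cell was too shallow, the shares were 21.6% and 26.8% in WT and 14.9% and 19.3% in KO libraries, which did not overlap and rest on 28 to 42 positive cells in each library. That separation depended on the draw and the depth. A second draw at 2000 UMIs gave 20.6% and 23.6% in WT and 12.4% and 20.7% in KO libraries, and thinning to 5000 UMIs gave 26.2% and 32.2% in WT and 17.4% and 30.4% in KO libraries, both with overlap, so no lower share of positive cells can be read from KO replicate 2.

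The amount of *Col8a1* in a positive cell also differed between the libraries of the genotypes. High cells with a *Col8a1* UMI held a mean of 14.8 and 16.4 of them in WT and of 9.70 and 5.71 in KO libraries. Cells with 6 or more *Col8a1* UMIs made up 18.0% and 26.6% of the high cells in WT and 10.9% and 14.5% in KO libraries. Mean UMIs per thinned cell were 0.675 and 0.919 in WT and 0.406 and 0.331 in KO libraries. In none of these measures did the KO libraries overlap with the WT libraries. All of them are drawn from the same *Col8a1* counts, for which the gene was chosen. No share over all genes is given for them, so nothing is read from the lack of overlap. The means per positive cell and the shares with 6 or more UMIs were not thinned. High cells were shallower in the KO libraries, at medians of 9254 and 9891 UMIs against 10906 and 11650 UMIs in WT. The part of depth in these values was not tested. Between the KO libraries themselves, KO replicate 2 had more positive cells with fewer UMIs each than KO replicate 1.

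Among the high cells, the *Col8a1* positive cells held more elastin RNA than the negative ones in every library. *Eln* encodes tropoelastin, the core of the elastic fibres of arteries. The 196 positive cells had a mean of 5006 CPM of *Eln* over the 4 libraries against 811 CPM in the 469 negative cells, and the log2 difference between them ranged from 2.16 to 3.34. When the high cells were split at 10 *Eln* UMIs per 10000, a cut chosen after the values were seen, the 260 cells above it held 87.01% to 97.12% of the *Col8a1* UMIs of the high cells. They made up 35.1% and 37.9% of the high cells in WT and 37.1% and 48.3% in KO libraries, so their share was not lower in KO libraries. A *Col8a1* UMI was found in 67.6% and 66.0% of them in WT and in 49.3% and 62.9% in KO libraries.

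**Figure D2:**
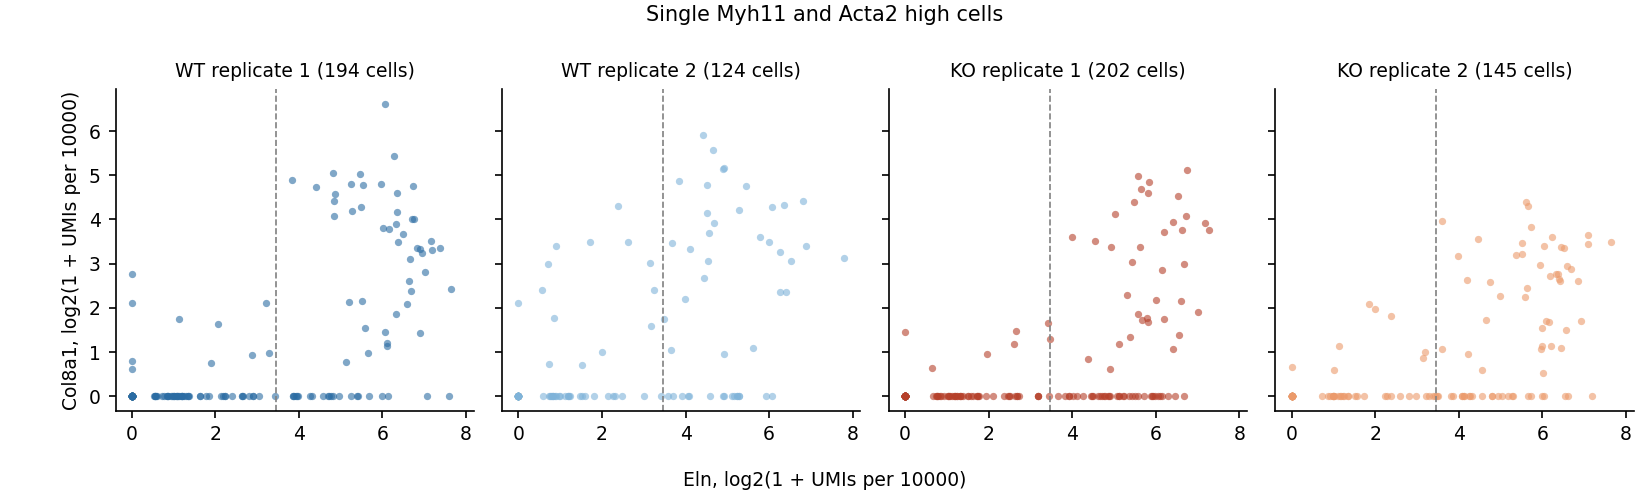
Each point is 1 Myh11 and Acta2 high cell, with Eln on the x axis and Col8a1 on the y axis, both as log2(1 + UMIs per 10000), in 1 panel for each library, and the dashed line marks the split at 10 Eln UMIs per 10000. Col8a1 positive cells gather right of the line in every library, and the upper reach of Col8a1 is lowest in KO replicate 2, where no cell held more than 20 UMIs.

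In the *Eln*-rich cells the KO libraries lay below the WT libraries in *Col8a1*, and between them in *Eln*. In the cells above the split *Col8a1* stood at 1006 and 1078 CPM in WT and at 538 and 371 CPM in KO libraries, a log2 difference of -1.22 ± 0.16. In the same cells *Eln* stood at 6598 and 3864 CPM in WT and at 4906 and 5593 CPM in KO libraries. Below the split *Col8a1* was 16.6 and 105 CPM in WT and 9.21 and 20.6 CPM in KO libraries, where the groups overlapped.

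The positive cells differed from the negative ones in other genes as well. Of the contractile genes counted here, *Acta2* and *Myh11* had set the cut for the high cells. Both were higher in positive cells of all 4 libraries. The genes below were chosen after their values were seen. With *Col8a1*, in every library, went *Pax3* (31.6 against 0.636 CPM) and *Msx2* (39.5 against 0.850 CPM), both transcription factors of early patterning, and *P2rx1* (149 against 18.0 CPM), an ATP-gated channel of smooth muscle. Of 17 contractile genes, 13 were higher in positive cells of all 4 libraries, among them *Cnn1* (calponin) at 459 against 130 CPM and *Tagln* (transgelin) at 12085 against 4725 CPM, while *Des* (40.3 against 69.3 CPM) and *Pln* were lower in all 4 and the other 2 were mixed. Of 16 elastic fibre genes 8 were higher in all 4 libraries and 8 mixed, and of 9 TGF-beta response genes 3 were higher and 6 mixed. Those higher included *Ccn2*, a matricellular protein of the TGF-beta response, at 325 against 77.5 CPM, *Ltbp1*, which tethers latent TGF-beta to the matrix, at 205 against 51.2 CPM, and the elastin crosslinking enzyme gene *Loxl1* at 147 against 48.8 CPM. The share of all genes that lay on the same side in all 4 libraries is not given. Nothing is therefore read about the lists from these counts, or from those of the pericyte genes below.

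Of 12 pericyte genes, 7 were lower in positive cells of all 4 libraries, 3 (*Mcam*, *Cspg4* and *Ndufa4l2*) were higher in all 4 and 2 were mixed. Among the 7, *Rgs5* stood at 2015 CPM in negative cells against 1089 CPM in positive cells, *Higd1b* at 69.7 against 25.0 CPM and *Vtn*, which encodes vitronectin, at 73.5 against 10.0 CPM. *Art3* (147 against 10.53 CPM) and *Casq2* (264 against 39.7 CPM), a calcium store protein, were also lower with *Col8a1*. Positive cells were slightly deeper than negative ones, with medians of 9406 to 12320 against 9250 to 11324 UMIs, and the part of depth in these differences was not tested.

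Among cells of the class, *Col8a1* was higher where the contractile genes were higher. In cells with 100 to 300 *Acta2* UMIs per 10000 it was 581 and 772 CPM in WT and 381 and 266 CPM in KO libraries. In cells with 30 to 100 it was 82.3 and 76.8 CPM in WT and 1.82 and 18.4 CPM in KO libraries. In both bins the KO libraries lay below the WT libraries. Under 30 *Acta2* UMIs per 10000 no bin passed 30.9 CPM in any library, and the genotypes overlapped. The bin above 300 held 3 to 10 cells a library.

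**Figure D3:**
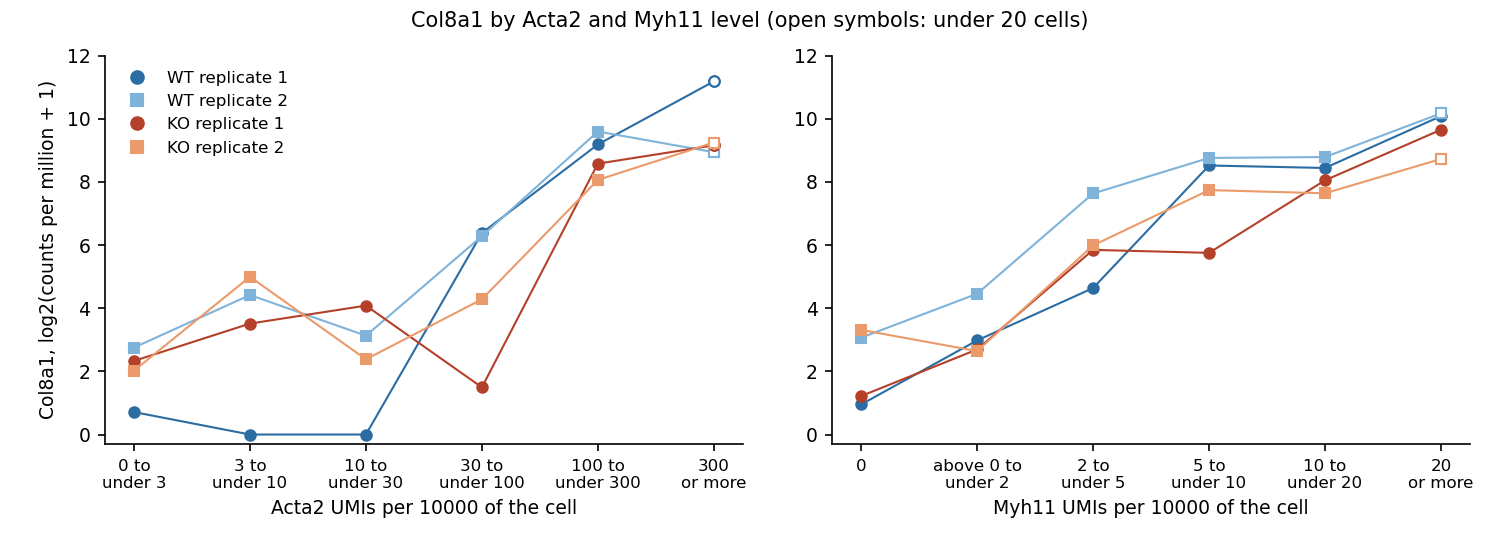
Col8a1, as log2(CPM + 1) on the y axis, in cells of the smooth muscle or pericyte-like class binned by their Acta2 level (left) and Myh11 level (right), in UMIs per 10000 of the cell, with 1 line for each library and open symbols for bins with under 20 cells. In every library Col8a1 is higher at 100 to 300 than under 30 Acta2 UMIs and highest in the top Myh11 bin, and the KO lines lie under the WT lines at 30 to 100 and 100 to 300 Acta2 UMIs.

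Markers of fibroblasts moved with the genotype in these cells. The 10 FAP markers summed to 2940 and 3074 CPM in the high cells of the WT libraries and to 4730 and 3658 CPM in those of the KO libraries, with none of the 10 at 0. *Col8a1* itself was 13.6 to 24.2 CPM in FAP-like cells, below its level in the high cells of every library. Without the 20 high cells that Scrublet called doublets, FAP markers summed to 2413 and 2965 CPM in WT and 3899 and 3229 CPM in KO libraries, and *Col8a1* stood at 384 and 492 against 206 and 192 CPM. In the 473 high cells with no UMI of *Dcn*, *Lum* or *Pdgfra*, a choice made after the values were seen, *Col8a1* was 413 and 455 CPM in WT and 241 and 207 CPM in KO libraries, a log2 difference of -0.93 ± 0.12.

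The difference depended on which cells were kept when the whole FAP list was used. High cells with a summed FAP share under the median held only 2.71% to 12.1% of the *Col8a1* UMIs of the high cells, and in them *Col8a1* was 56.3 and 30.1 CPM in WT and 26.4 and 52.9 CPM in KO libraries. Those libraries overlapped, with a log2 difference of -0.31 ± 0.30. Of these cells 50 were *Eln*-rich, with *Col8a1* at 391 and 36.1 CPM in WT and 195 and 212 CPM in KO libraries, which also overlapped. In the cells at or above the median it was 780 and 847 CPM in WT and 406 and 290 CPM in KO libraries, a log2 difference of -1.24 ± 0.15. The list holds *Col1a1*, *Col1a2* and *Col3a1*, and these were themselves higher in *Col8a1* positive than in negative high cells of every library. The part of fibroblast RNA in the KO difference beyond these values was not tested.

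**Figure D4:**
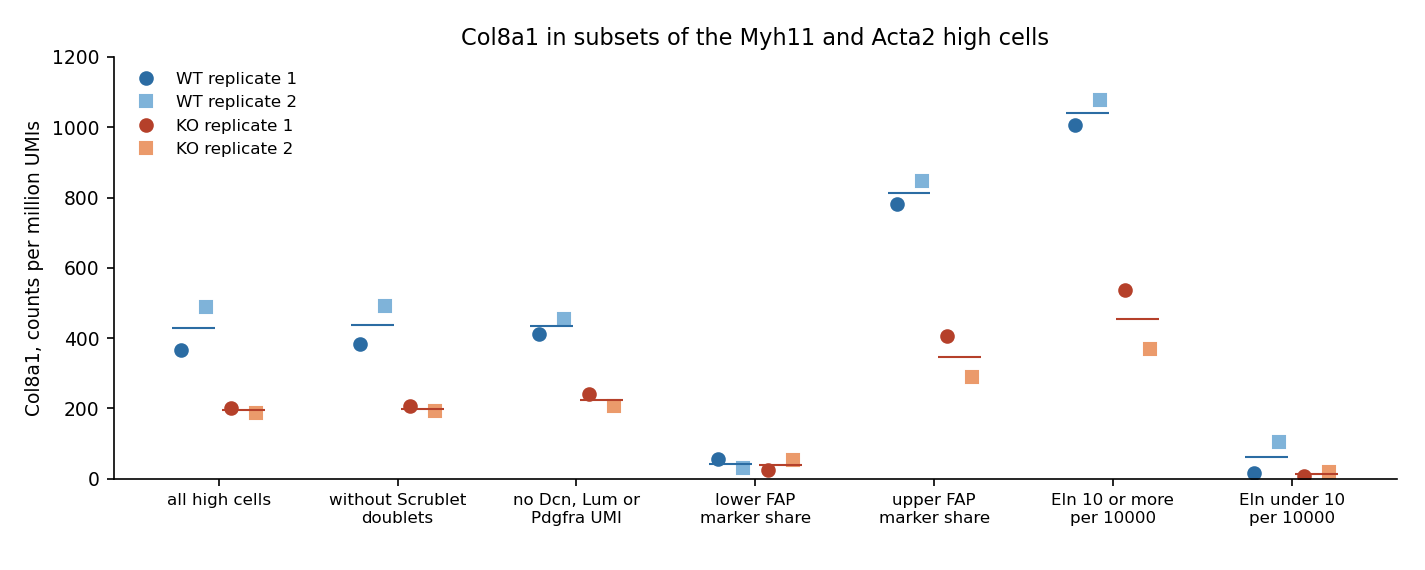
Col8a1 in subsets of the Myh11 and Acta2 high cells, in CPM on a linear axis from 0, with 1 point for each library and a line at the mean of each genotype. Both KO points lie below both WT points in all high cells, without doublets, without Dcn, Lum or Pdgfra UMIs, in the upper FAP marker share and in the Eln-rich cells, and they overlap in the lower FAP marker share and below the Eln split.

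The vessel wall held few *Col8a2* UMIs. The high cells held 1 and 1 *Col8a2* UMIs in WT and 6 and 2 in KO libraries, or 0.445 to 2.92 CPM, the lowest mean of the 11 groups. This was at or below the 1.09 to 2.00 CPM found in myogenic-like cells in 3 of 4 libraries, so it is read as background, and no fold is given. Of 196 high cells with a *Col8a1* UMI, 3 also had a *Col8a2* UMI, against 5 of the 469 without. In the class as a whole *Col8a2* counted 8 and 3 UMIs in WT and 14 and 10 UMIs in KO libraries, which is 0.706 to 2.84 CPM.

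Both genes were found together in the chondrocyte-like class. *Col8a2* was highest in the chondrocyte-like class at 87.2 to 112 CPM, with FAP-like cells next at a mean of 20.8 CPM, the *Ccl11* cluster at 18.8 CPM and tenocyte-like cells at 12.4 CPM. The chondrocyte-like class was mixed. It held 953 cells of a finer cluster led by *Kera*, in which 6 of 6 tenocyte markers stood out. *Col8a2* was 80.8 CPM over the pooled cells of that finer cluster. The tenocyte-like value above leaves those 953 cells out. A finer cluster of 875 cells, 873 of them in the chondrocyte-like class, was led by *Spp1*, *Runx2* and *Tnn*, genes of bone-forming cells. The marker lists left it unnamed at that clustering. There *Col8a1* reached 321 ± 48 CPM (SD, n = 2) in WT and 355 ± 17 CPM (SD, n = 2) in KO libraries, with no lower level in KO. In that cluster *Col8a2* was 203 ± 5.1 CPM in WT and 204 ± 16 CPM in KO libraries, and 378 of the 485 cells with *Col8a1* also had *Col8a2*. In glial-like cells, by contrast, *Col8a1* was found in 502 of 1830 cells and *Col8a2* in 35.

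In most other classes the libraries of the genotypes overlapped. The log2 difference of *Col8a1* was -0.04 ± 0.24 in FAP-like, 0.26 ± 0.18 in chondrocyte-like, -0.13 ± 0.12 in glial-like and 0.11 ± 0.42 in endothelial-like cells, with overlapping libraries in each. In the *Ccl11* cluster it was -0.15 ± 0.13, with 53.3 and 46.6 CPM in WT and 42.0 and 46.0 CPM in KO libraries, which did not overlap, as in 21.2% of the 12789 genes tested there. In myogenic-like cells it was 0.61 ± 0.43, on 82 UMIs. Within the FAP-like class 1 finer cluster of 3285 cells, led by *Adarb2*, *Hpse2* and *Grin2b* and chosen after its values were seen, had *Col8a1* at 20.8 and 19.4 CPM in WT and 13.0 and 11.04 CPM in KO libraries, a log2 difference of -0.72 ± 0.16 that the class value does not show. There 17.4% of 14196 genes had both KO libraries below both WT libraries. The difference between these values and that of the high cells was not tested, as the gene was chosen for it. High cells contributed 27.8% and 20.3% of all *Col8a1* UMIs of the kept cells in WT and 21.6% and 7.99% in KO libraries, and chondrocyte-like cells, which held 15.8% to 42.0% of them, numbered from 330 to 1387 a library. *Col8a2* overlapped between the genotypes in FAP-like (log2 difference 0.00 ± 0.20) and chondrocyte-like cells (0.06 ± 0.14). In the *Ccl11* cluster it was -0.41 ± 0.18, with both KO libraries below both WT libraries, as in 21.2% of the genes tested there. Tenocyte-like cells had that order too, at -0.01 ± 0.24, and the share over all genes is not given. Nothing is read from either order.

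The other genes of the vessel wall were examined in the high cells with edgeR's quasi-likelihood test over 10639 genes, of which 17 (0.16%) passed an adjusted p of 0.05, 16 (0.15%) higher and 1 lower in KO. The 1 lower gene (0.0094% of those tested) was *Col8a1*, and nothing is read from its call. Of 16 tested contractile genes none passed, and their median log2 change was -0.05 beside -0.00 for all genes. *Acta2* was 11372 and 13377 CPM in WT and 11351 and 13156 CPM in KO libraries (log2 change -0.01 ± 0.12, adjusted p = 0.996), and *Tagln* 7224 and 7610 CPM in WT and 6490 and 7113 CPM in KO libraries (-0.12 ± 0.11). *Myocd*, the transcriptional coactivator of the contractile programme, was 178 and 216 CPM in WT and 179 and 212 CPM in KO libraries (-0.00 ± 0.12), and is named here as an example outside the naming rule.

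No pericyte gene passed either. All 12 had a negative log2 change, against 50.4% of all genes tested in these cells, and their median was -0.25. For 9 of the 12 the highest KO value was under the lowest WT value, an order found in 16.8% of all genes. The shift of the list as a set was not tested. *Rgs5* stood at 1873 and 2028 CPM in WT and 1733 and 1253 CPM in KO libraries (edgeR adjusted p = 0.689). *Ndufa4l2*, a mitochondrial protein gene of pericytes, was 1672 and 1478 CPM in WT and 1422 and 1332 CPM in KO libraries. None of 15 tested elastic fibre genes passed, with a median log2 change of 0.27. *Eln* was 2415 and 1603 CPM in WT and 1868 and 2754 CPM in KO libraries (0.20 ± 0.18, adjusted p = 0.993). *Fbn2*, a microfibril component of fetal tissue, was 295 and 394 CPM in WT and 340 and 348 CPM in KO libraries.

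Of 12 tested genes on a list of other collagens, 2 passed and both were higher in KO, with a median log2 change of 0.31 over the 12. The list does not hold every collagen gene, and those of basement membranes are counted below. *Col6a1*, a chain of the beaded filament collagen VI, was 77.9 and 81.3 CPM in WT and 136 and 122 CPM in KO libraries (log2 change 0.70 ± 0.13, adjusted p = 0.0335). *Col1a1*, a chain of fibrillar collagen I, was 788 and 716 CPM in WT and 1292 and 997 CPM in KO libraries (0.61 ± 0.12, adjusted p = 0.0487). Both are also made by fibroblasts, and both calls were lost without doublets and without cells holding *Dcn*, *Lum* or *Pdgfra* UMIs, where the log2 change of *Col6a1* turned to -0.31.

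Of 15 tested basement membrane genes none passed, with a median log2 change of 0.01. *Col4a1*, a chain of the basement membrane's own network collagen, was 1079 and 1133 CPM in WT and 1006 and 934 CPM in KO libraries (-0.19 ± 0.09, adjusted p = 0.993), and its partner chain *Col4a2* was 492 and 499 CPM in WT and 450.3 and 465 CPM in KO libraries. The machinery that hydroxylates and folds collagen chains had none of 12 past the threshold and a median of 0.09, with *Serpinh1*, the collagen chaperone, at 1032 and 1207 CPM in WT and 1125 and 1176 CPM in KO libraries. *Ppib*, a prolyl isomerase of the same pathway, was 679 and 696 CPM in WT and 757 and 703 CPM in KO libraries. Of the receptors, *Itgb1* was 799 and 914 CPM in WT and 747 and 824 CPM in KO libraries, *Itga1* 634 and 772 against 639 and 626 CPM, and *Ddr1*, named outside the rule, 27.2 and 34.4 against 30.6 and 28.5 CPM. None of the 3 tested receptors passed, and *Itga2* was too low to be tested. Genes of the TGF-beta response had none of 8 past the threshold and a median of -0.01, with *Pmepa1* at 179 and 183 CPM in WT and 167 and 183 CPM in KO libraries and *Ccn2* at 131 and 186 CPM in WT and 154 and 153 CPM in KO libraries.

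**Figure D5:**
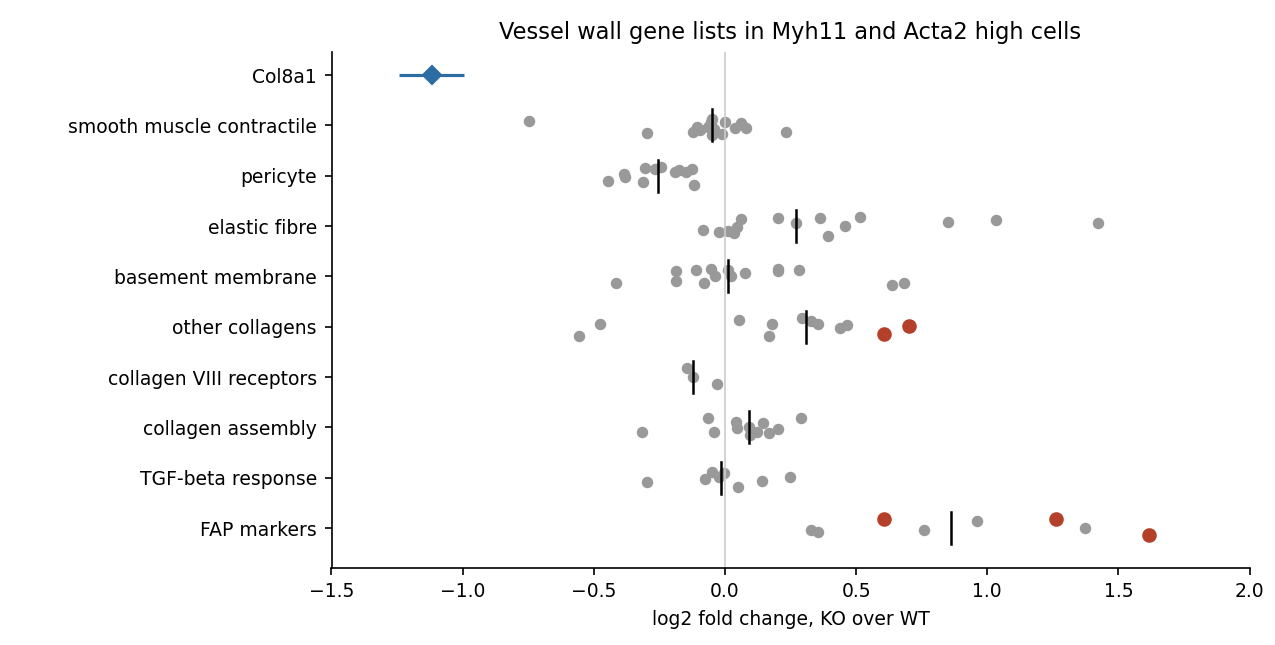
Log2 fold change of KO over WT in the Myh11 and Acta2 high cells for each tested gene of 9 lists, with red points for genes with an edgeR adjusted p under 0.05 and a black line at the median of each list, and Col8a1 with its standard error at the top as a description. Col8a1 lies at -1.12, left of every list gene, and the red points are all right of 0.

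Fibroblast markers were among the 16 genes that rose in the high cells. Of 8 tested FAP markers 3 passed, of which *Col1a1* was already counted among the other collagens. The median log2 change of the 8 was 0.86. *Lum*, a small matrix proteoglycan, rose from 24.5 and 24.5 CPM in WT to 90.5 and 57.6 CPM in KO libraries (1.62 ± 0.21, adjusted p = 0.00359), and *Dcn*, another of that family, from 123 and 107 to 331 and 222 CPM (1.26 ± 0.15, adjusted p = 0.00236). Outside the lists the largest were *Nav3* (2.09 ± 0.40, adjusted p = 0.0487), *Cthrc1*, a secreted protein of matrix-forming fibroblasts (1.98 ± 0.26, adjusted p = 0.00359), *Clec3b* (1.38 ± 0.22, adjusted p = 0.0199), *Nrk*, a kinase gene (1.01 ± 0.17, adjusted p = 0.0206), and *Igf1*, the growth factor (1.00 ± 0.16, adjusted p = 0.0199). *Cthrc1* stood at 1222 CPM in chondrocyte-like and 687 CPM in FAP-like cells against 17.4 and 9.92 CPM in the high cells of the WT libraries. Without doublets *Dcn* was the 1 gene still called higher, while *Lum* (1.61, adjusted p = 0.0512), *Cthrc1* (1.60, adjusted p = 0.153), *Clec3b* (1.58, adjusted p = 0.0512) and *Nav3* (1.53, adjusted p = 0.937) kept positive log2 changes that missed the threshold. Without cells holding *Dcn*, *Lum* or *Pdgfra* UMIs no gene was called higher, and *Cthrc1* had a log2 change of 0.76.

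In the class as a whole 12 of 12608 genes (0.0952%) passed, 11 (0.0872%) higher in KO, and the 1 called lower (0.00793%) was *Col8a1*, from which nothing is read since the gene was chosen for this difference. FAP markers gave 4 of the 11, which were *Lum* (1.95 ± 0.17, adjusted p = 0.000123), *Pdgfra*, the receptor that defines these fibroblasts (1.64 ± 0.26, adjusted p = 0.0271), *Dcn* (1.41 ± 0.21, adjusted p = 0.0160) and *Smoc2* (1.37 ± 0.20, adjusted p = 0.0135). Outside the lists the largest were *Cthrc1* (1.29 ± 0.15, adjusted p = 0.00257), *Robo2*, a guidance receptor (1.21 ± 0.20, adjusted p = 0.0387), *Nrk* (0.85 ± 0.14, adjusted p = 0.0387), *Ptn*, the growth factor pleiotrophin (0.63 ± 0.09, adjusted p = 0.0135) and *Btg2*, an early response gene (0.54 ± 0.08, adjusted p = 0.0135). The FAP markers summed to 2677 and 2229 CPM in this class in WT and 4057 and 3372 CPM in KO libraries, and their part in these calls was not tested.

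No tested gene beside *Col8a1* on chromosome 16 passed. Of the 10 nearest genes in the RefSeq table, 2 were tested in the high cells. Most of the others have no entry in the feature tables and could not be counted, while *4921517D16Rik* has an entry but was too low. *Cmss1*, 17.4 kb away, had a log2 change of -0.22 ± 0.10 (adjusted p = 0.979), and *Filip1l*, 51.5 kb away, one of 0.04 ± 0.12 (adjusted p = 0.993). Around *Col8a2*, 8 of 10 were tested and none passed, with log2 changes from -0.37 for *Adprhl2* to 0.51 for *Sh3d21*.

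Over 44 sums of class and library, the genes whose levels were most like *Col8a1* among 12293 genes were *Klf9* (Pearson r = 0.82), *Grb14* (0.81), *Cdk11b* (0.81), *Oat* (0.80), *Nkd1* (0.79), *Mamdc2* (0.79), *Fstl3* (0.79), *Scube3* (0.79), *Ntrk3* (0.79) and *Me1* (0.79). Those most like *Col8a2* were *Lbhd2* (0.93), *Pitx1* (0.91), *Cpz* (0.90), *Itgbl1* (0.90), *Clec11a* (0.90), *Cthrc1* (0.90), *Prr16* (0.90), *Sec16a* (0.89), *Rrbp1* (0.89) and *Mfap4* (0.88), each highest in chondrocyte-like cells. *Col8a1* and *Col8a2* themselves correlated at r = 0.36. The sums are not independent, as the 4 libraries share 11 classes and each library its depth, so these values only describe.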

How the data were processed

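Droplet-based 3′ single-cell libraries (2 WT, 2 KO) of E18.5 leg muscles were used. The authors aligned reads to mm10 with Cell Ranger 7.2.0 and what they deposited are counts of UMIs for every gene in every barcode, without normalisation. That version counts intronic reads by default, and whether this was kept was not stated. Barcodes were retained at 1000 to 6000 genes and 1000 to 25000 UMIs if mitochondrial genes gave less than 8%. Doublets were not removed in the main setting, and Scrublet was an alternative (1.65% to 2.56% of kept cells).

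Cells were clustered (scanpy 1.11.5, Leiden resolution 0.3, 3000 variable genes, 30 components, 20 neighbours) without batch correction and named from marker lists, so classes are rebuilt and may differ from those of the study. For each class, the UMIs of its cells were added up within a library, and KO was tested against WT with edgeR 4.0.16 (TMM factors, filterByExpr, quasi-likelihood, Benjamini-Hochberg over all genes tested, 0.05), after a check on simulated counts. The library was the replicate, so p-values measure only the spread between these libraries. DESeq2 1.42.0 was an alternative. Others were a looser cell filter (500 to 7500 genes, at least 500 UMIs, under 15% mitochondrial), a stricter cut (30 *Acta2* and 5 *Myh11* UMIs per 10000), a looser cut (1 UMI of each), no gene filter and leaving out each library. Median depth was 9118 to 11427 UMIs per kept cell, and intervals cover counting error only. The members, gene lists and alternatives were chosen with earlier results of these data known. From each list the text names the genes past the threshold (up to 4) or, if fewer than 2 passed, the 2 highest, and outside the lists up to 5 called genes in each direction with at least 10 CPM and no overlap between groups. Coordinates and sequences came from GENCODE M21 and RefSeq tables of GRCm38.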

Additional observations from a re-analysis of the deposited data

How the results depend on the processing

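*Col8a1* in the high cells kept its direction in every alternative run. Its log2 difference lay between -1.31 and -0.92 when each library was left out and was -0.31 in the lower FAP marker share and between -1.24 and -0.93 in the other alternatives. In the whole class it lay between -1.26 and -1.002 without each library, and moved to -0.55 in the lower FAP marker share and -0.97 without *Dcn*, *Lum* or *Pdgfra* UMIs. In the other cells it ran from -0.96 to 1.79 without each library and was 0.56 under the looser cut, so it has no settled direction. *Col8a2* in the class, on 3 to 14 UMIs a library, ran from 0.64 to 1.83. In the first draw at 2000 UMIs, the KO minus WT share of high cells with a *Col8a1* UMI (-7.16 points) ran from -9.75 to -4.57 without each library. That range holds for this draw only. The second draw gave 20.6% and 23.6% in WT and 12.4% and 20.7% in KO libraries, which overlapped. The difference was -4.00 unthinned and -5.27 at 5000 UMIs. Without KO replicate 1 it turned to 3.28 unthinned, 1.23 at 5000 UMIs and 0.32 under the stricter cut. The differences in cell shares ran from -0.88 to 0.15 points (class of kept cells), -0.56 to 0.21 (high of kept cells) and -5.39 to 3.92 (high of class). Counts of called genes were less stable. In the class (12) there were 132 with no gene filter, 3 with the looser cell filter, and 0 both in the lower FAP marker share and without *Dcn*, *Lum* or *Pdgfra* UMIs, where edgeR gave 538 and 526 genes at an unadjusted p under 0.05, and 33 to 114 without each library. In the high cells (17) there were 11 with DESeq2, 79 with no gene filter, 2 without doublets, 9 with the looser cell filter, 1 and 2 in the lower and upper FAP marker share, 35 with the looser cut, 3 in *Eln*-rich cells, 1 without *Dcn*, *Lum* or *Pdgfra* UMIs and 42 to 121 without each library. In the other cells (15) there were 5 with DESeq2, 0 with no gene filter (678 at an unadjusted p under 0.05), 3 without doublets, 5 with the looser cell filter, 2 in the lower FAP marker share, 1 with the stricter and 1 with the looser cut, and 56 to 88 without each library. List genes called in high cells (4, all higher) were 14 with no gene filter (1 lower), 1 without doublets, 1 with the looser cell filter, 8 with the looser cut, 0 in the lower and 0 in the upper FAP marker share, 0 in *Eln*-rich cells, 0 without *Dcn*, *Lum* or *Pdgfra* UMIs and 5 to 11 without each library. Of 300 values of named genes under alternatives, 223 kept their call, 73 lost it and 4 changed sign, which were *Cthrc1* (-0.0069, class) and *Col1a1* (-0.061, high cells) in the lower FAP marker share and *Robo2* (-0.86, class) and *Col6a1* (-0.31, high cells) without *Dcn*, *Lum* or *Pdgfra* UMIs. The cause of these changes was not tested. The subsets by *Eln*, by *Dcn*, *Lum* or *Pdgfra* UMIs and by the upper FAP share were chosen after seeing the data.

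WT and KO libraries share replicate numbers, which the labels do not tie to a litter or day. Deviations of same-numbered libraries correlated at r = 0.10 in the class, 0.01 in the high cells and 0.12 in the other cells. With the replicate block, 124 genes were called in the class, 22 in the high cells and 129 in the other cells, and the log2 difference of *Col8a1* in the high cells was -1.11.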
